A study of Mus musculus with 6 samples.

Results

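The TGF-beta superfamily was followed through macrophages sorted from the omentum (OM), a fatty peritoneal fold, and from the mesenteric adipose tissue (MY) of mice given an ovarian cancer line. Its genes were taken from the deposited expression table by their symbols alone: the TGF-beta ligands and receptors, the bone morphogenetic proteins (Bmp), the growth differentiation factors (Gdf), the activin and inhibin subunits, anti-Müllerian hormone (Amh) and its receptor, the Smads, the latent TGF-beta binding proteins (Ltbp), and secreted antagonists such as Fst, Nog and Grem1. This gave 59 members among the 23946 genes of the table. The mice were C57BL/6, female and 6 to 8 weeks old by the study's methods, and no group carried a transgene. In both tissues the groups were naive mice (0 h), and mice 24 h and 7 d after an intraperitoneal injection of ID8 cells, a line derived from mouse ovarian surface epithelium. CD45+CD11b+F4/80+ cells were sorted, and the RNA of each of the 6 combinations of tissue and time was sequenced as 1 library. The 9 mice were handled as 3 groups of 3, with the cells of several animals pooled in a library. There is therefore no replicate, no test and no SD. Every difference given here describes 2 libraries, and tissue, time and library cannot be told apart. Because ID8 cells are of the same mouse background, their transcripts cannot be told apart from those of the host by gene symbol.

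Ligands of this superfamily are secreted dimers that bring together type I and type II receptor kinases. TGF-beta and activin receptors phosphorylate Smad2 and Smad3, whereas BMP receptors and the receptor of anti-Müllerian hormone phosphorylate Smad1, Smad5 and Smad9. These join Smad4 and enter the nucleus, where Smad6 and Smad7 are induced as feedback inhibitors. Latent TGF-beta is held in the matrix by Ltbp proteins until it is activated, and macrophages are well known both as a source of Tgfb1 and as cells that respond to it.

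The promoters of the 4 members with the largest mean difference over both omental time points after injection are shown because these genes were low in the naive omentum, at 0 to 2.77 FPKM, and high after injection. Each is the 250 bases directly before the annotated start in the NCBIM37 assembly (mm9) with GENCODE M1, written 5′ to 3′ on the strand of the gene, and none of these windows holds an annotated exon. Capitals mark AGGTCA, the hexamer bound by Nr5a1 and other nuclear receptors, and CAGAC, the Smad box, both searched on either strand (as TGACCT and GTCTG on the other). The motifs were chosen after the expression values had been seen.
Amhr2, chr15:102275548-102275797, plus strand: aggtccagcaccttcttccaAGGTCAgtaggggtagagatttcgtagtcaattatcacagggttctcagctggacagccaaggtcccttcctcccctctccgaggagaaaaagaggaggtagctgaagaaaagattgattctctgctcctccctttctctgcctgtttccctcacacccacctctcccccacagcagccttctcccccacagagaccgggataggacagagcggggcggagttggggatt
Inha, chr1:75503402-75503651, plus strand: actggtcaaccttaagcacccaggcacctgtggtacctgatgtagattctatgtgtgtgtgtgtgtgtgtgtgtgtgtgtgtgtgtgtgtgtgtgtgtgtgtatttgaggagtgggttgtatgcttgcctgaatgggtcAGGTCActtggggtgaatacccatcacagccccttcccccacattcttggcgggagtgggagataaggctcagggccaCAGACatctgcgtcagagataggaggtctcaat
Tgfb3, chr12:87419992-87420241, minus strand: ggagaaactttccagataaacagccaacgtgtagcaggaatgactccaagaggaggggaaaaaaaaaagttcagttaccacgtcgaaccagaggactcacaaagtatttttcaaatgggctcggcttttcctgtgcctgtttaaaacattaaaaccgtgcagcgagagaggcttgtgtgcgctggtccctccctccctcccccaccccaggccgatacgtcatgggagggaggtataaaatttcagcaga
Smad6, chr9:63869867-63870116, minus strand: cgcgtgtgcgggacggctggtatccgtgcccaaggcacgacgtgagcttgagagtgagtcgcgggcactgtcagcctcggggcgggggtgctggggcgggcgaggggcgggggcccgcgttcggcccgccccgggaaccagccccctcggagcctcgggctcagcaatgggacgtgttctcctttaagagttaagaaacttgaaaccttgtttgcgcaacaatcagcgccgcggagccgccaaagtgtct
AGGTCA began 230 bases before the start of Amhr2 and 111 bases before that of Inha, whose window also held CAGAC from 33 bases before the start, without overlap of the 2 motifs. Neither set of letters was found in the Tgfb3 and Smad6 windows. Of the windows of all 22380 genes searched, 12.6% held AGGTCA and 40.9% held CAGAC, against 10 and 24 of the 59 members. A match is a description of the letters and not a bound site.

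Values are FPKM, sequenced fragments scaled to transcript length and to the size of the library, so that levels of different genes can be set side by side. The table gives no read number, and a rough depth from the steps between low values ran from 0.853 to 1.48 times that of MY 0h, lowest in OM 0h and highest in OM 7d. The genes of the sort were present in all 6 libraries, with Ptprc (CD45) at 106 to 208 FPKM, Itgam (CD11b) at 27.8 to 151 FPKM and Emr1 (F4/80) at 20.5 to 135 FPKM. All 10 macrophage markers exceeded 1 FPKM in every library, and their summed level was 9219, 37845 and 8056 FPKM in OM at 0 h, 24 h and 7 d and 4340, 7016 and 4172 FPKM in MY. Markers of other cells were present beside them. The 9 mesothelial markers in the table summed to 118 to 1099 FPKM in OM and to 0.964 to 1.33 FPKM in MY, and the 10 fibroblast markers to 258 to 1293 FPKM in OM and to 2.46 to 3.91 FPKM in MY. B cell markers summed to 905 to 3967 FPKM in OM and 524 to 1539 FPKM in MY. T cell markers summed to 27.4 to 135 FPKM in OM and 575 to 1160 FPKM in MY, and neutrophil markers to 6372 to 16744 FPKM in OM and 242 to 723 FPKM in MY. The OM 24h library stood apart in its macrophage sum, and Cd74, which was at 11323 to 26905 FPKM elsewhere, was listed at 0 in it, so that a value of 0 may be a failed estimate.

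Of the 59 members, 37 reached an FPKM of 1 in at least 1 library and 22 did not. Of the 37, 16 did so only in OM libraries (43.2%, against 10.2% of all 13064 genes that passed the same filter) and only Ltbp2 did so in MY alone. Members that passed in this way had to be higher in the omentum, so the counts below describe the libraries and support nothing further. A member was counted as apart when its log2(FPKM + 1) differed by at least 1, which is 2-fold on that scale and understates the change of low genes. The number of members at 1 FPKM or more was 26, 33 and 35 in OM at 0 h, 24 h and 7 d and 18, 20 and 16 in MY. Over all genes it was 11178, 11441 and 12099 in OM and 11247, 11284 and 11043 in MY, highest in OM 7d, where the rough depth was highest too. The highest of the 6 values lay in OM 7d for 17 of the 37 members, against 16.1% of all genes that passed, and in OM 24h for 9, against 21.9%, with 2 in OM 0h and 9 in the MY libraries together.

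**Figure D1:**
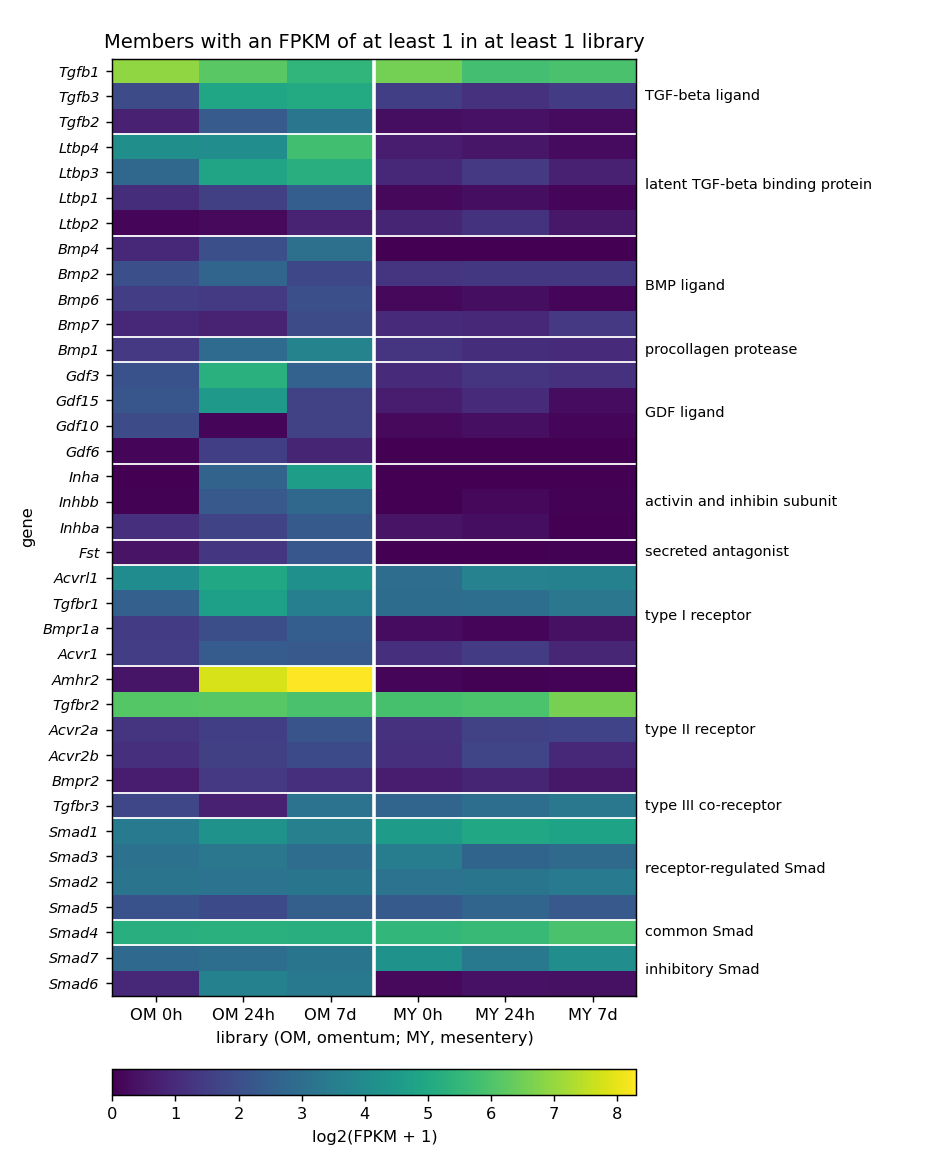
Level of the 37 members that reached an FPKM of 1, as log2(FPKM + 1), in the 6 libraries (columns, 1 library each), with genes in rows grouped by role. Tgfb1, Tgfbr2 and Smad4 were at 10 FPKM or more in every library, whereas Amhr2, Inha and Smad6 were under 1 FPKM outside OM 24h and OM 7d.

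In the naive tissues, the omentum exceeded the mesentery by 2-fold or more for 8 members and fell short of it by as much for 2, 10 of 37 in all, against 16.2% of all genes that passed the filter (8.18% higher and 8.05% lower). With each library rescaled to a sum of 1000000 the split was 9 higher and 4 lower. The members higher in the naive omentum were Acvrl1, Bmp6, Bmpr1a, Gdf10, Gdf15, Gdf3, Ltbp3 and Ltbp4, and those lower were Smad1 and Smad7. At 24 h, 21 members were higher in OM and 1 was lower, against 13.9% and 10.2% of all genes (24.1% in all), with 20 higher and 4 lower after the rescaling. At 7 d, 19 were higher and 1 was lower, against 14.1% and 4.99% (19.1% in all). The median log2 difference of the members between the tissues was 0.33 at 0 h, 1.27 at 24 h and 1.34 at 7 d, whereas the median over all genes was 0.01, 0.00 and -0.01. These medians are over the genes that passed the filter and depend on it. Over the 54 members above 0 in any library they were 0.02, 0.09 and 0.41, and over all such genes -0.01, 0 and 0.

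Within the omentum, 13 members were higher and 1 (Gdf10) was lower at 24 h than at 0 h, against 18.3% of all genes (11.9% higher and 6.45% lower). At 7 d, 16 were higher and 1 (Tgfb1) was lower than at 0 h, against 12.9% of all genes (11% higher and 1.96% lower). These 2 comparisons share the OM 0h library. In the mesentery no member was 2-fold apart from MY 0h at either time, where 4.32% of all genes were apart at 24 h (2.8% higher and 1.52% lower) and 2.79% at 7 d (0.498% higher and 2.29% lower). The 16 members that passed the filter only in OM (10.2% of all genes did so) were under 1 FPKM in every MY library. On log2(FPKM + 1) they could not be 2-fold apart there, so their lack of a call in MY was fixed in advance. The medians over the members were 0.69 and 0.80 in OM and 0.11 and -0.04 in MY at 24 h and 7 d. Without the filter they were 0.12 and 0.40 in OM and 0 and -0.03 in MY. No member moved by 1.5-fold or more in opposite directions in the 2 tissues.

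**Figure D2:**
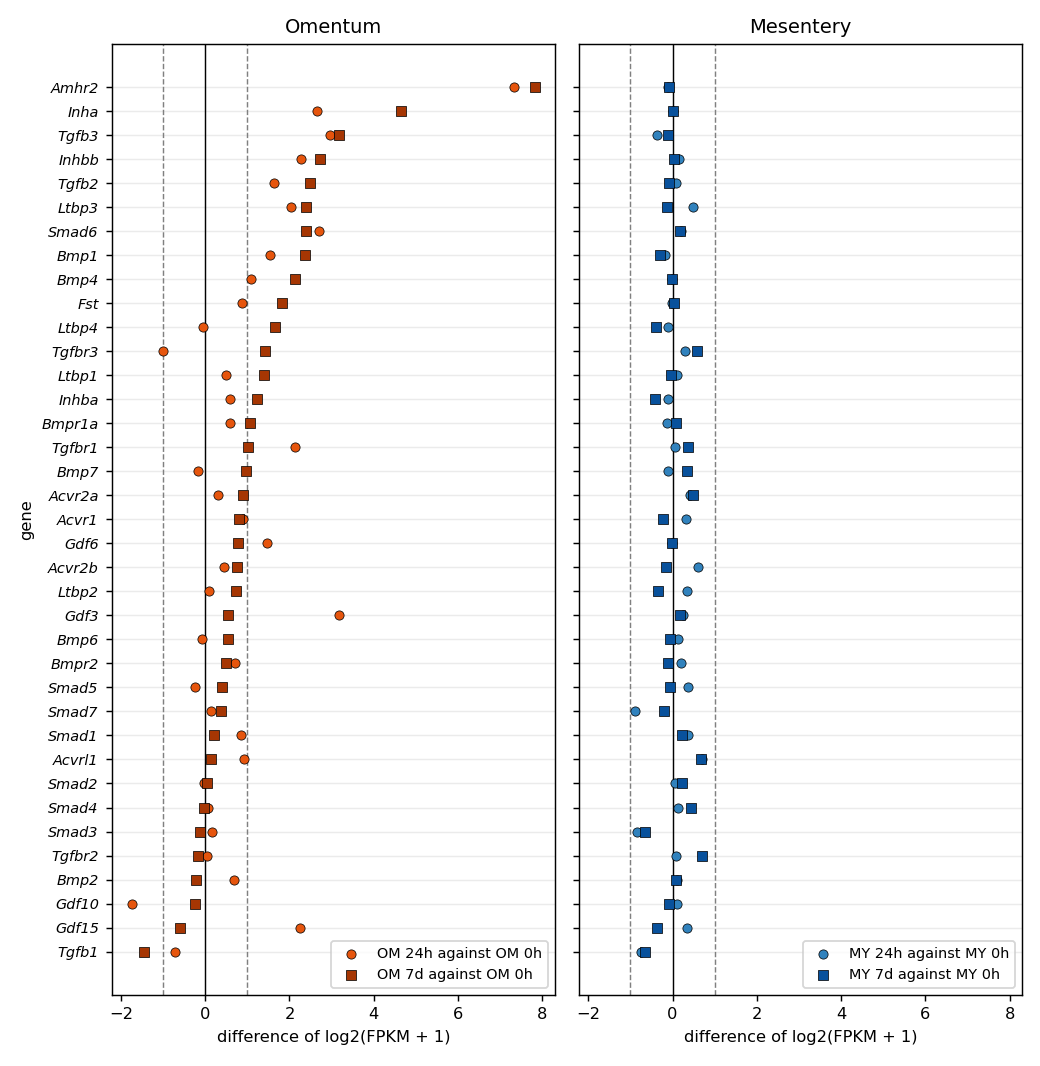
Difference of log2(FPKM + 1) from the naive library of the same tissue at 24 h (circles) and 7 d (squares), in OM (left) and MY (right), for the 37 members that passed the filter, ordered by the 7 d value in OM; dashed lines mark 2-fold. In OM, Amhr2 was at 7.32 and 7.82 and Tgfb3 at 2.96 and 3.17, whereas all MY points lie between the dashed lines. Members under 1 FPKM in every MY library could not lie beyond those lines in MY. Inha was listed at 0 in OM 0h, so its place rests on the pseudocount of 1.

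Among the ligands that give the family its name, Tgfb1, the isoform of most leukocytes, had the highest FPKM of all members in OM 0h and MY 0h. It was at 119, 71.8 and 43.2 FPKM in OM at 0 h, 24 h and 7 d and at 94.2, 55.2 and 59.6 FPKM in MY. It was thus lower after injection in both tissues, by a log2 difference of -0.73 and -1.45 in OM and -0.76 and -0.65 in MY, and only OM 7d passed 2-fold. Tgfb3, an isoform known from mesenchymal and epithelial tissues, was at 2.77, 28.3 and 33.0 FPKM in OM and at 1.93, 1.25 and 1.73 FPKM in MY. The naive omentum was close to the mesenteric libraries, and both later OM libraries were more than 10 times higher in level than any of them. Tgfb2, the remaining isoform, was at 0.709, 4.26 and 8.62 FPKM in OM and at 0.245, 0.322 and 0.184 FPKM in MY. Along the omental time course Tgfb2 and Tgfb3 were thus higher after injection and Tgfb1 was lower, and in OM 7d Tgfb3 was at 33.0 FPKM beside 43.2 FPKM of Tgfb1.

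The Ltbp proteins, which hold latent TGF-beta in the matrix, differed between the tissues already before injection. Ltbp4 was at 16.5, 15.9 and 54.1 FPKM in OM and at 0.548, 0.426 and 0.173 FPKM in MY. It had the widest gap of all members between the lowest OM and the highest MY library, a log2 difference of 3.45, and it was higher at 7 d but not at 24 h. Ltbp3 was at 6.01, 27.9 and 36.1 FPKM in OM and at 0.883, 1.61 and 0.708 FPKM in MY, with a gap of 1.42. The groups did not overlap for either gene. Ltbp1 followed at 1.11, 1.97 and 4.59 FPKM in OM and 0.144, 0.235 and 0.111 FPKM in MY. Ltbp2, which does not bind latent TGF-beta, was at 1.32 FPKM or less everywhere.

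The ligands of the BMP group were low. Bmp4, a mesenchymal morphogen, was at 0.928, 3.07 and 7.44 FPKM in OM and at 0.0168 FPKM in MY 0h, and both later mesenteric libraries list it at 0. Bmp6, which drives hepcidin in iron balance, was at 1.82, 1.69 and 3.11 FPKM in OM and at 0.130, 0.242 and 0.0761 FPKM in MY, and was at least 2-fold higher in every OM library than in any MY library. An exon of Bmp6 overlaps Txndc5 on the opposite strand, a gene at 204, 134 and 190 FPKM in OM and at 129, 55.2 and 184 FPKM in MY. The part of Txndc5 reads in the Bmp6 values was not tested. The strand used in making the FPKM is not given in the sources used here. Bmp2 was at 1.38 to 5.53 FPKM and Bmp7 at 0.751 to 2.85 FPKM. Bmp1, a procollagen protease that shares the name only, was at 1.58, 6.54 and 12.3 FPKM in OM and at 1.41, 1.14 and 0.967 FPKM in MY. It was level with the mesentery at 0 h and apart from it by a log2 difference of 1.82 at 24 h and 2.75 at 7 d.

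Gdf3 and Gdf15 were highest at 24 h in the omentum. Gdf3, a ligand also known from macrophages of adipose tissue, was at 3.22, 37.4 and 5.18 FPKM in OM and at 0.978, 1.37 and 1.26 FPKM in MY. Gdf15, a stress-induced cytokine, was at 3.65, 21.1 and 2.08 FPKM in OM and at 0.575, 0.994 and 0.221 FPKM in MY. In both cases the 3 OM libraries lay above the 3 MY libraries. Their log2 difference from OM 0h was 3.18 and 2.25 at 24 h but 0.55 and -0.59 at 7 d. Gdf10 ran the other way, at 2.72, 0.111 and 2.13 FPKM in OM and at most 0.265 FPKM in MY, while Gdf6 reached 1.94 FPKM in OM 24h. The macrophage list had its highest sum in OM 24h too, and the part of the macrophage share of a library in the 24 h values of Gdf3 and Gdf15 was not tested.

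The inhibin alpha subunit Inha, which pairs with a beta subunit to make inhibin, was listed at 0 in OM 0h and in all 3 MY libraries. It was at 5.26 FPKM in OM 24h and at 24.1 FPKM in OM 7d. Its transcript was thus listed above 0 only in the omentum after injection. Inhbb, the beta B subunit, was at 0.0334, 3.98 and 5.81 FPKM in OM and at 0.0191, 0.142 and 0.0452 FPKM in MY. Inhba, the beta A subunit of activin A, was at 1.19, 2.29 and 4.16 FPKM in OM, and in MY at 0.345 FPKM when naive, 0.250 FPKM at 24 h and 0 at 7 d. The alpha and beta B subunits were thus present at 1 FPKM or more only in the omentum after injection, whereas Inhba reached it in the naive omentum as well. Fst, the secreted inhibitor of activins, was at 0.369, 1.5 and 3.82 FPKM in OM and at no more than 0.0284 FPKM in MY.

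Amhr2, the type II receptor of anti-Müllerian hormone, was the member with the largest differences. It is known from the gonads and from the mesenchyme of the Müllerian duct. It was at 0.397, 223 and 315 FPKM in OM at 0 h, 24 h and 7 d and at 0.114, 0.0313 and 0.0591 FPKM in MY. The 4 other libraries all lay under 1 FPKM, and in OM 24h and OM 7d it exceeded every other member. The log2 difference from OM 0h was 7.32 at 24 h and 7.82 at 7 d. Its ligand Amh stayed at 0.115 FPKM or less in all 6 libraries. The gene lies at chr15:102275798-102285061 on the plus strand, and no other annotated exon overlaps it.

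The receptors of TGF-beta itself were spread less. Tgfbr2, the type II receptor, was at 67.8, 69.6 and 60.1 FPKM in OM and at 58.4, 61.4 and 96.1 FPKM in MY, with no comparison reaching 2-fold. Tgfbr1, the type I kinase that it activates, was at 4.89, 25 and 10.9 FPKM in OM and at 6.66, 6.97 and 8.82 FPKM in MY. OM 24h was highest, by a log2 difference of 2.14 from OM 0h, and the naive omentum lay under all MY libraries. Tgfbr3, the co-receptor betaglycan, was at 2.4, 0.701 and 8.04 FPKM in OM and at 5.6, 7.07 and 8.92 FPKM in MY. At 24 h it was the single member for which the omentum lay under the mesentery by more than 2-fold, with a log2 difference of -2.25. NK cell markers summed to 478, 32.0 and 272 FPKM in OM and 2720, 1662 and 1278 FPKM in MY, and T cell markers were also lowest in OM 24h, at 27.4 FPKM. Both lists were lowest in the library where Tgfbr3 was lowest, as were the endothelial, mast cell and dendritic cell sums. The other libraries did not keep this order. In MY the NK sum was lower at each later time while Tgfbr3 was higher. In OM 7d Tgfbr3 was above OM 0h while the NK and T cell sums were under it. The part of these cells in the values of Tgfbr3 was not tested.

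Acvrl1, a type I receptor for Gdf2 and Bmp10 that is best known from endothelium, was at 15.3, 29.9 and 17.0 FPKM in OM and at 6.91, 11.9 and 11.6 FPKM in MY. The OM libraries all lay above the MY libraries, by 2-fold or more at 0 h and 24 h but not at 7 d, and after rescaling to a sum of 1000000 the log2 differences at 0 h and 24 h were 0.87 and 0.98. Both of its ligands were listed at 0 in all 6 libraries, and the endothelial markers summed to 9.90 to 43.9 FPKM in OM and 36.4 to 47.4 FPKM in MY. Most of that sum was Pecam1, at 8.85 to 37.8 FPKM in OM and 31.8 to 45.2 FPKM in MY. Cdh5, Tek and Vwf were under 1 FPKM in all 6 libraries. Bmpr1a, a BMP type I receptor, was at 1.69, 3.03 and 4.64 FPKM in OM and at 0.216, 0.116 and 0.286 FPKM in MY, apart by at least 2-fold throughout. Acvr1, Acvr2a, Acvr2b and Bmpr2 lay between 0.450 and 4.30 FPKM in all libraries.

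**Figure D3:**
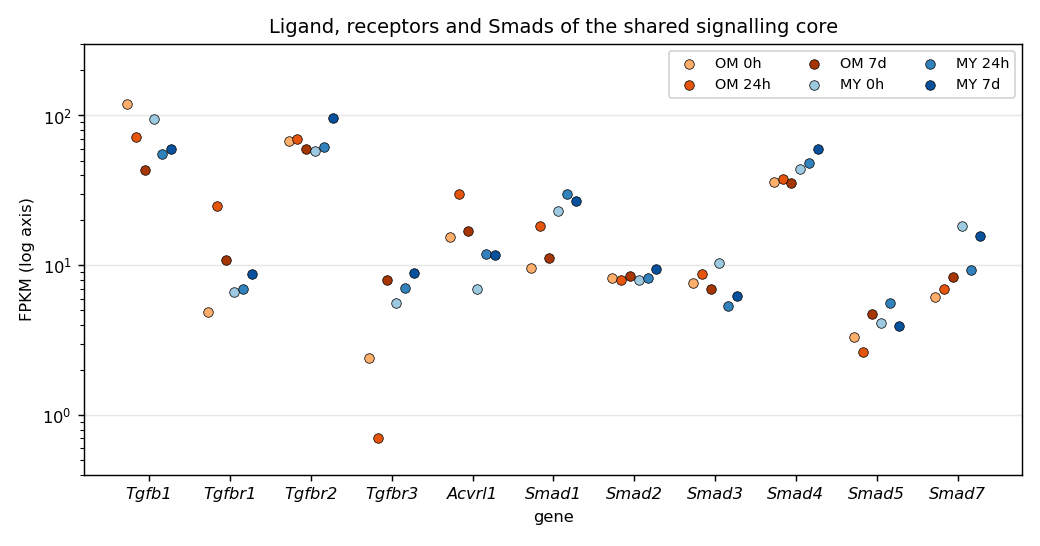
FPKM on a log axis of Tgfb1, its receptors, Acvrl1, and the Smads apart from Smad6 and Smad9, with 1 point per library (orange, OM; blue, MY; darker with time). Tgfbr2 lay between 58.4 and 96.1 FPKM and Smad2 between 7.92 and 9.41 FPKM, while Smad1 and Smad7 were higher in every MY library than in any OM library.

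Of the Smads that carry the signal, Smad2, Smad3, Smad4 and Smad5 were among the members with the smallest spread, and Smad1 was not. Smad4, the common partner, was at 36.2, 37.7 and 35.6 FPKM in OM and at 43.9, 48.5 and 59.6 FPKM in MY. Smad2 lay between 7.92 and 9.41 FPKM and Smad5 between 2.66 and 5.61 FPKM. None of these was 2-fold apart in any of the comparisons of 2 libraries. Smad3 was at 7.68, 8.77 and 6.91 FPKM in OM and at 10.4, 5.34 and 6.28 FPKM in MY, without a 2-fold difference. Smad1, which carries BMP signals, was at 9.58, 18.2 and 11.2 FPKM in OM and at 23.1, 30.1 and 27 FPKM in MY. All MY libraries were above all OM libraries, by 2-fold at 0 h and 7 d (log2 difference -1.19 at each) and by less at 24 h (-0.69). Smad9 was at 0.0646 FPKM or less.

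The inhibitory Smads went apart. Smad7, which blocks TGF-beta receptors, was at 6.18, 6.96 and 8.39 FPKM in OM and at 18.2, 9.31 and 15.8 FPKM in MY. Smad6, which acts mainly on BMP receptors, was at 0.936, 11.6 and 9.15 FPKM in OM and at 0.156, 0.323 and 0.296 FPKM in MY. Smad7 was thus higher in all MY libraries, and Smad6 in all OM libraries, and the log2 difference of Smad6 from OM 0h was 2.71 at 24 h and 2.39 at 7 d against 0.15 and 0.39 for Smad7. Over all 6 libraries, 19 of the 37 members were higher in every OM library than in any MY library and 3 (Smad1, Smad4 and Smad7) were lower, 22 in all, against 16.7%, 17.7% and 34.4% of all genes. By at least 2-fold these were 4 higher (Bmp6, Bmpr1a, Ltbp3 and Ltbp4) and 0 lower, against 2.73% and 2.12% of all genes (4.85% in all). Without the 0 h libraries, 16 members were apart by 2-fold in this way, against 10.1% of all genes.

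The 22 members below the filter reached at most 0.975 FPKM (Gdf11 in MY 0h). Bmp10, Gdf2, Gdf5, Inhbc and Inhbe were listed at 0 in all 6 libraries. Nog, an antagonist of BMPs, was above 0 only in MY 24h, at 0.340 FPKM, and Grem1 was at no more than 0.0595 FPKM. Gdf1 and Bmp8b, both in this group, overlap exons of other genes, and Bmp8a and Bmp8b are near-identical copies whose reads may be split.

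Markers of other cells moved with several of these genes. The mesothelial sum was 118, 1030 and 1099 FPKM in OM, 8.72 and 9.30 times the naive level at 24 h and 7 d, and all 9 markers were at least 2-fold higher in every OM library than in any MY library. Wt1, one of them, was at 2.16, 25.2 and 38.1 FPKM in OM and at no more than 0.00867 FPKM in MY. Tgfb3 amounted to 2.34%, 2.75% and 3.00% of the mesothelial sum in the 3 OM libraries, and Amhr2 to 0.336%, 21.6% and 28.7%. Within OM, Tgfb3 stood in a nearly constant ratio to the mesothelial list, and Amhr2 did not. In MY this ratio did not hold: Tgfb3, at 1.93, 1.25 and 1.73 FPKM, exceeded the mesothelial sum of 0.964, 1.23 and 1.33 FPKM. The list is not particular to mesothelial cells here, since it holds Krt8 and Krt18, whose proteins the study stained to find ID8 cells in the omentum. The part of mesothelial cells and the part of ID8 cells in these values were not tested.

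The fibroblast sum was 372, 258 and 1293 FPKM in OM, with 8 of 10 markers at least 2-fold higher in every OM library than in any MY library. Ltbp4 amounted to 4.44%, 6.18% and 4.18% of it. In MY this ratio did not hold: Ltbp4 was at 0.548, 0.426 and 0.173 FPKM beside a fibroblast sum of 2.46, 3.91 and 2.75 FPKM. Both Ltbp4 and the fibroblast sum were highest in OM 7d and did not exceed the naive level at 24 h, and the part of fibroblasts in Ltbp4 was not tested. In a bulk library, more cells of a type and more RNA per cell cannot be told apart.

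A list of 11 genes of the gonads, written with earlier results of these data known, summed to 4.23, 49.5 and 73.0 FPKM in OM and to 0.757 to 1.23 FPKM in MY. Nr5a1, a nuclear receptor of steroid-producing cells, was at 0.0135, 8.85 and 14.1 FPKM in OM and was listed at 0 in MY. Gata4 was listed at 0 in OM 0h, was at 25.9 and 33.1 FPKM at 24 h and 7 d, and did not exceed 0.177 FPKM in MY. The defining genes Fshr, Cyp19a1 and Zp3 were listed at 0 in all 6 libraries, and Foxl2 reached 1.20 FPKM, in OM 7d. Cyp11a1, a steroid-producing enzyme, went the other way in OM, at 3.20, 0.231 and 1.75 FPKM. Star was at 0.898, 8.38 and 11.1 FPKM in OM, and Sox9 at 0.0832, 5.93 and 9.55 FPKM. Of the 11 genes, 7 passed the filter. At 24 h, 4 were at least 2-fold higher than in OM 0h and 1 was lower, against 11.9% and 6.45% of all genes. At 7 d, 6 were higher and 0 lower, against 11% and 1.96%. The list thus moved only in part with Amhr2 and Inha, and its part in their values was not tested.

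**Figure D4:**
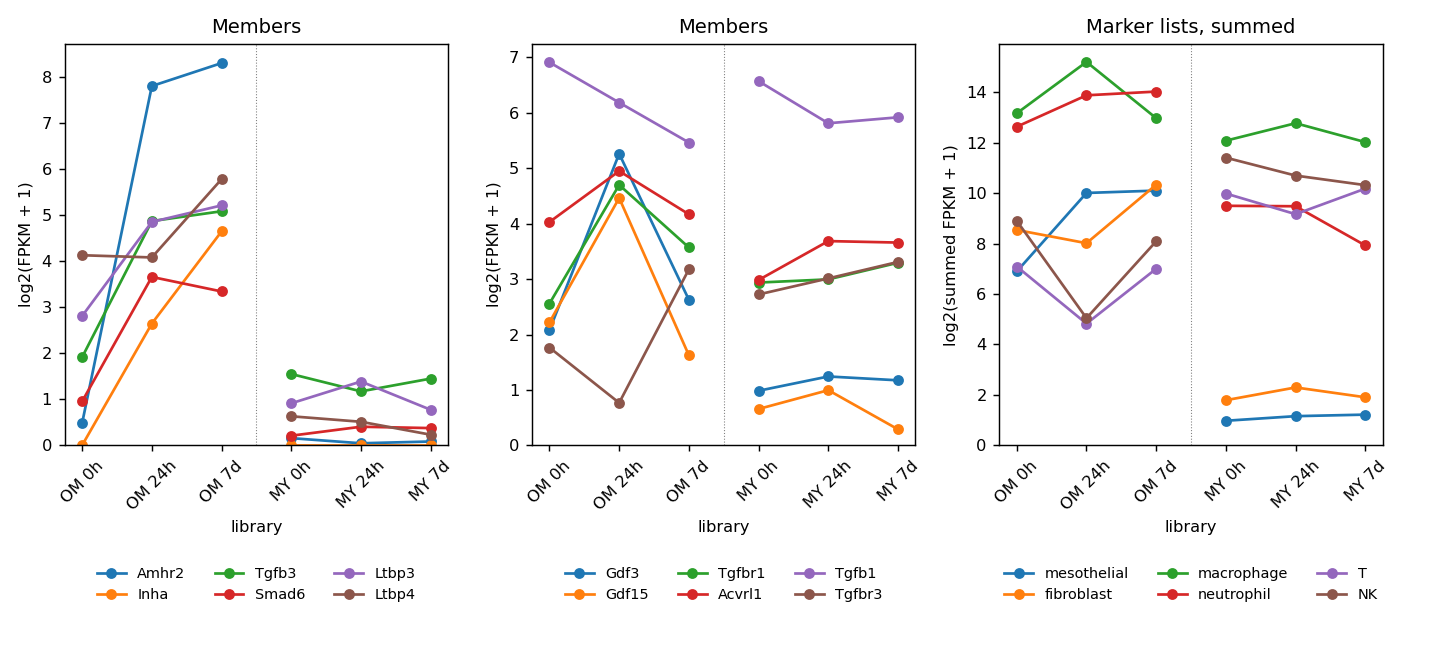
Level as log2(FPKM + 1) of 6 members that were highest after injection (left), of 6 others (middle), and of the summed FPKM of 6 marker lists (right), in the 6 libraries. Tgfb3 and the mesothelial list were higher at both times in OM, Ltbp4 and the fibroblast list were highest in OM 7d, and Gdf3, Gdf15 and the macrophage list were highest in OM 24h.

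The genes whose pattern was most like that of Amhr2 were sought among the 7998 genes with an FPKM of 10 or more in at least 1 library, by Pearson's r of log2(FPKM + 1) over the 6 libraries. The closest were Gxylt2, Lgals2, Kcnab1, Epn3, Sdsl, Scx, Gata4, Nr0b2, Bcar1 and Tspan8, with r from 0.998 to 0.9995. Lgals2, for example, was at 0.149, 57.1 and 59.8 FPKM in OM and was listed at 0 in MY. Among the members, Tgfb3 came closest (r = 0.995, rank 31), followed by Smad6 (r = 0.987, rank 69), Bmp1 (r = 0.978, rank 114) and Inha (r = 0.959, rank 184). Nr5a1 stood at rank 20 and Wt1 at rank 133. With 6 points that share libraries and 2 of them high, such values describe a shared pair of high libraries and nothing further.

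Genes that act in the pathway but bear other names were counted from lists chosen by role. The 22 intracellular regulators (21 passed the filter) were almost level. Tgif1, a corepressor of Smad2 and Smad3, was the only one 2-fold apart in any comparison, at 48.3, 66.5 and 64.3 FPKM in OM and 20.4, 20.1 and 24.2 FPKM in MY. Of 12 activators of latent TGF-beta (9 passed), 4, 4 and 5 were higher in OM than in MY at 0 h, 24 h and 7 d and none was lower. Of all genes, 8.18%, 13.9% and 14.1% were higher and 8.05%, 10.2% and 4.99% lower. Itgb5, an integrin subunit, was at 9.07, 192 and 37.0 FPKM in OM and at 8.45, 14.7 and 9.43 FPKM in MY. Thbs1, a matrix protein that activates TGF-beta, was at 6.08, 42.9 and 23.0 FPKM in OM and at 0.602, 2.57 and 0.435 FPKM in MY. Both were highest in OM 24h, the library in which Tgfbr1 was highest as well.

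Of 29 extracellular modulators (17 passed), 6, 9 and 11 were higher in OM at the 3 times and 0, 0 and 1 lower. The shares of all genes were 8.18%, 13.9% and 14.1% higher and 8.05%, 10.2% and 4.99% lower. The modulators higher in OM included Fstl1, a follistatin-like glycoprotein, at 7.03, 22.1 and 36.9 FPKM in OM and 0.243, 0.480 and 0.176 FPKM in MY. Another was Nbl1, a BMP antagonist, at 26.9, 37.2 and 116 FPKM in OM and 2.11, 3.44 and 3.07 FPKM in MY. Dcn, which binds TGF-beta and is also on the fibroblast list, was at 189, 109 and 782 FPKM in OM and 1.46, 2.10 and 1.61 FPKM in MY. Twsg1, Bgn and Htra1, the other modulators with such differences, were likewise highest in OM 7d.

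Genes known as transcriptional targets of the pathway (22, of which 21 passed) did not move as one. At 0 h, 24 h and 7 d, 8, 10 and 11 were higher in OM than in MY and 2, 3 and 1 were lower. Of all genes, 8.18%, 13.9% and 14.1% were higher and 8.05%, 10.2% and 4.99% lower. Within OM, 6 were higher and 1 lower at 24 h, against 11.9% and 6.45% of all genes. At 7 d, 2 were higher and 0 lower, against 11% and 1.96%. Id1, a BMP target, was at 6.63, 17.7 and 51.0 FPKM in OM and at 4.29, 5.33 and 2.16 FPKM in MY, while Id3 lay between 46.0 and 114 FPKM in all libraries. Tgfbi was highest in OM 24h, at 421 FPKM against 86.5 FPKM in OM 0h, and Pmepa1, a feedback inhibitor of TGF-beta signalling, had the same course at 4.83, 20.8 and 10.2 FPKM. Ctgf was at 1.95, 23.6 and 43.3 FPKM in OM and at 0.0649 to 0.0848 FPKM in MY. Cdkn2b, a cell cycle inhibitor induced by TGF-beta, went the other way, at 1.69, 2.69 and 3.11 FPKM in OM and 36.0, 56.6 and 32.0 FPKM in MY. Col1a1, Fn1, Acta2, Tagln and Junb, like Ctgf, were each at least 2-fold higher in every OM library than in any MY library, and Col1a1 is on the fibroblast list as well.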

How the data were processed

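RNA of sorted macrophages from 6 conditions was sequenced, with 1 library each. Per the study's methods, the authors checked reads with FastQC 0.11.4, used STAR 2.4.2a for alignment against mm9 with UCSC gene models, and deposited FPKM values made with Cufflinks, with no further scaling between libraries visible. Differences were taken on log2(FPKM + 1), without a test. A gene was kept if any library reached an FPKM of 1, and 2-fold was the threshold. Members were given in full where they reached an FPKM of 10, or where they reached 2 and were 4-fold apart in a comparison of 2 libraries or 2-fold apart between every OM and every MY library. The members and lists were chosen with earlier results of these data known. Alternatives were pseudocounts of 0.1 and 5, other filters, median-ratio scaling, a sum of 1000000 per library, and leaving out a time point. The code that makes the calls was tested on simulated data. The error of the calls in these 6 libraries, without replicates, was not tested. Depth in reads is unknown from FPKM. Python 3.11.15, pandas 2.3.3, numpy 2.4.6 and matplotlib 3.10.9 were used. Positions are from GENCODE M1, which is not the authors' annotation. Values of some genes are not reported here.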

Additional observations from a re-analysis of the deposited data

How the results depend on the processing

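No paired analysis was possible because no value comes from a test and no label gives libraries a shared replicate number; the tissues were compared within each time point. The counts of members 2-fold apart depended most on the pseudocount. With 0.1 they were 20 for OM 0h against MY 0h (24.4% of all genes), 1 for MY 24h against MY 0h (9.51%), 3 for MY 7d against MY 0h (6.98%), and 11 for every OM against every MY library (8.06%). With 5 they were 2, 11 and 10 for OM against MY at 0 h, 24 h and 7 d (7.91%, 12.4% and 8.99% of all genes), 8 and 11 for the omentum at 24 h and 7 d against its naive library (8.92% and 5.35%), and 1 for every OM against every MY library (2.18%). With a filter at an FPKM of 5, OM 7d against MY 7d gave 13 (17.8% of all genes) and every OM against every MY library 2 (5.85%). Rescaling to a sum of 1000000 gave 2 for MY 24h against MY 0h, where 5.73% of all genes were apart (Smad3 and Smad7, with log2 differences of -1.0 and -1.04). Leaving out a time point gave 5 to 16 members for every OM against every MY library, the highest without the 0 h libraries, against 7.42% to 10.1% of all genes. Under the rescaling to a sum of 1000000, the median of all genes shifted to -0.19 and -0.27 for OM against MY at 0 h and 24 h, and to -0.17 and 0.12 within the omentum at 24 h and 7 d. The other 37 recomputed counts stayed within 1.5 times of their value. Of 182 log2 differences of the members given in full, 76 were at least 2-fold, and no alternative turned the direction of one of these. Of 728 recomputed values, 36 fell under 2-fold (34 with the pseudocount of 5) and 21 rose to it. Since FPKM carries no read number, the counting error of low values is unknown.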

Other observations

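Smad6 and Id1 are both known as targets of BMP signalling, and they did not keep one order: Smad6 was higher in OM 24h (11.6 FPKM) than in OM 7d (9.15 FPKM), and Id1 was higher in OM 7d (51.0 FPKM) than in OM 24h (17.7 FPKM). Nrros, which holds latent Tgfb1 on the surface of macrophages, was at 136, 189 and 105 FPKM in OM and at 53.8, 64.3 and 70.2 FPKM in MY, so that every OM library lay above every MY library while Tgfb1 itself overlapped between the tissues. Among members near the boundary of 2-fold, Tgfbr3 differed by -0.998 (log2) between OM 24h and OM 0h and was not counted, because it lies just inside it.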
